A study of Mus musculus with 9 samples.

Results

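The genes described here are 7 transient receptor potential (TRP) channels that are studied less in pain and touch neurons than their relatives Trpv1, Trpm8 and Trpa1. They are Trpv2, Trpm2, Trpm3, Trpm4, Trpm7, Trpc1 and Trpc6. They were taken by name from a list drawn up with earlier results of these data known, and all 7 were found among the 21536 genes of the count table. Another 19 TRP genes in the table serve for comparison.

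The ganglia came from FVB/N mice, wild-type and aged 3 to 6 weeks in the labels (3 to 5 in the study's methods), and their cells were captured in 9 Dropseq runs, in which each cell is caught with a bead that marks its transcripts with a barcode and a unique molecular identifier (UMI). Ganglia of many mice of both sexes were pooled for each run, no mouse carried a transgene or received a treatment, and a Percoll gradient enriched the neurons. The table holds 6997 barcodes with 30491529 UMIs, between 1000 and 190815 per barcode (median 2031), and its barcodes do not name the run. All runs were therefore treated as 1 sample, and no test between groups of neurons was possible.

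A barcode was called a neuron when it had 500 to 7500 genes, a UMI of at least 3 of the 6 genes Tubb3, Scn9a, Snap25, Nefl, Nefm and Uchl1, and no UMI of Epcam, an epithelial gene. This gave 3855 neurons with 20924276 UMIs and a median of 3014 per neuron. Neurons were sorted by the first gate they passed. At least 2 UMIs of Trpm8, the cold and menthol receptor, marked 244 neurons, and 2 UMIs of Mrgprd, a receptor of non-peptidergic nociceptors, marked 379. At least 1 UMI of Mrgpra3, an itch receptor, marked 49 neurons, 2 UMIs of Nppb, an itch neuropeptide, marked 57, and 1 UMI of Cd34, a surface sialomucin, marked 320. At least 5 UMIs of Nefh, the heavy neurofilament of myelinated neurons, with none of Trpv1 marked 450 neurons. At least 5 UMIs of Calca, which encodes CGRP, with 1 or more of Trpv1, the capsaicin and heat receptor, marked 916. No gate was passed by 1440 neurons, which were shallow (median 1826.5 UMIs). Marker genes that a gate did not use were also read, 5 per gate. All but Mrgprx1 are in the study's list of cluster markers from these same cells, so they are no independent test of the gates. Of these 5 genes per gate, all 5 had their highest level in their own group for Trpm8, Nppb, Cd34, Nefh and Calca/Trpv1 neurons. For Mrgprd neurons 3 of 5 did, with Moxd1 highest in Mrgpra3 neurons and Gna14 in Nppb neurons, and for Mrgpra3 neurons 4 of 5 did, among them Mrgprx1 on 3 UMIs.

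Levels are given in CPM, the summed UMIs of a gene for each 1000000 UMIs in a group, with exact 95% Poisson intervals, and shares of barcodes with at least 1 UMI have exact Clopper-Pearson 95% intervals, in parentheses. Differences between groups are log2 ratios of CPM with exact binomial 95% intervals. All of these cover counting error only, and say nothing of the spread between mice or runs. UMIs are counted at the 3' end of transcripts, so a CPM is a number of molecules and was not divided by transcript length. In pooled cells, fewer neurons with a transcript and fewer copies per neuron cannot be told apart from a CPM alone. Several features of the table touch the values. Of the neurons, 349 (9.05%) passed more than 1 gate, with a median of 10609 UMIs, and no doublet caller was run. The same barcode sequence stood in 2 columns for 6 sequences, 306 neurons had a barcode with an undetermined base (N), and 112 of the neurons had a barcode ending in N that equalled another barcode with 1 base left out. Glial genes summed to 95.1 to 483 CPM in the 7 gated groups and to 8162 in neurons that passed no gate, where 3 red blood cell genes summed to 12531 CPM against 2841 to 5570 in the gated groups. Of the 49 levels of the 7 genes in the 7 groups, 7 left their interval when neurons with myelin gene UMIs or over 1% haemoglobin were left out, 5 without neurons that passed more than 1 gate, and none without barcodes that held an N or stood in 2 columns.

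TRP channels are tetramers of subunits with 6 membrane-spanning segments that pass cations, most of them calcium. The family is split by sequence into TRPV, TRPM, TRPC, TRPA, mucolipin and polycystin branches, and in sensory neurons members of it turn temperature, irritants or receptor signals into current. TRPV2 responds to strong heat and to stretch in expressed cells. TRPM2 opens with ADP-ribose, oxidants and warmth, TRPM3 with the steroid pregnenolone sulfate and heat, and TRPM4, which passes monovalent ions only, with intracellular calcium. TRPM7 is joined to a kinase and carries magnesium in most cell types. TRPC1 assembles with other TRPC subunits, and TRPC6 opens with diacylglycerol after phospholipase C is activated.

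The promoters of 3 genes are shown because these genes span the patterns found, namely Trpv2 with a graded pattern, Trpc6 with the most uneven and Trpm7 with the most even. Each run is 250 bases before and 50 bases after a transcription start in RefSeq (GRCm38.p6), read 5' to 3' on the gene's strand. Capitals mark CG pairs. Trpv2 lies on chr11:62574486-62600305 and the first of its 3 listed windows is chr11:62574236-62574535 on the + strand. Trpc6 lies on chr9:8543867-8680752 with the window chr9:8543892-8544191 on the + strand, and Trpm7 on chr2:126791558-126876261 with the window chr2:126876212-126876511 on the - strand.
Trpv2: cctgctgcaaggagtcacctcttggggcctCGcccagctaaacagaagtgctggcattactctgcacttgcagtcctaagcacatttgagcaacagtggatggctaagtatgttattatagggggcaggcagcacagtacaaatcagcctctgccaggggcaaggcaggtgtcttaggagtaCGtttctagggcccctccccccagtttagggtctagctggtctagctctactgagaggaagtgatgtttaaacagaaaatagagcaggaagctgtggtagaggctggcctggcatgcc
Trpc6: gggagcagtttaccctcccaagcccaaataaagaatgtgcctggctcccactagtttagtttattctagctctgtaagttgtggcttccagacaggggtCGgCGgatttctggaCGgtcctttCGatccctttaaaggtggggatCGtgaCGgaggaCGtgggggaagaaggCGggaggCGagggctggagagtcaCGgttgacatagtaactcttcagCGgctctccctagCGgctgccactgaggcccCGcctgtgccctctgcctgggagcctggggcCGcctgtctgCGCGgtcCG
Trpm7: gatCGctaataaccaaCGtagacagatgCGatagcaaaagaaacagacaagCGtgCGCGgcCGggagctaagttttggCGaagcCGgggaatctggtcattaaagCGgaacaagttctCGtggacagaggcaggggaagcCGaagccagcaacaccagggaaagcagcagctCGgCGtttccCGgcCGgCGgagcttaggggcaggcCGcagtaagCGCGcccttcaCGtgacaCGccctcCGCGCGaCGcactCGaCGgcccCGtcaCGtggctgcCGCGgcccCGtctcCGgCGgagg
The Trpm7 window held 35 CG pairs in 300 bases, the Trpc6 window 17 and the Trpv2 window shown 2, beside a median of 7 over 32851 promoters of that length. Of all promoters, 93.0% held fewer CG pairs than that of Trpm7 and 14.1% fewer than the window of Trpv2 shown. A later start of Trpv2, with the window chr11:62575377-62575676, had 7 CG pairs. RUNX1 is a transcription factor of non-peptidergic neurons, and Runx1 was at 251.9 (235.0 to 269.7) CPM in Mrgprd, 184.8 in Cd34, 152.3 in Trpm8, 126.1 in Calca/Trpv1, 112.7 in Nppb, 27.8 (12.7 to 52.9) in Mrgpra3 and 22.1 in Nefh neurons. Its core letters TGTGGT, searched on both strands, were in 1 place in the Trpv2 window shown, at bases 275 to 280, after the start. They were in none in its later window or the windows of Trpc6 and Trpm7, and 16.8% of all promoters held them. A listed window of Trpm3, which was highest in Calca/Trpv1 neurons, also held them, at bases 85 to 90. Whether RUNX1 acts on these genes was not tested. Windows were listed for 6 of the 7 genes.

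In all neurons together the 7 genes gave 4051 UMIs. Trpv2 was highest with 1401 UMIs, or 67.0 (63.5 to 70.6) CPM, and Trpm7 followed with 1266 UMIs, or 60.5 (57.2 to 63.9) CPM. Trpm3 was at 26.8 (24.6 to 29.1) CPM, Trpm4 at 16.2 (14.5 to 18.0) and Trpc6 at 11.6 (10.1 to 13.1). Trpm2 was at 6.31 (5.28 to 7.48) CPM and Trpc1 at 5.35 (4.41 to 6.44), with intervals that overlapped. Among 20044 genes with a UMI in neurons, Trpv2 had more UMIs than 84.2% and Trpc1 more than 47.3%. All 7 passed the limit of 50 UMIs in neurons that was set for counts of genes.

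**Figure D1:**
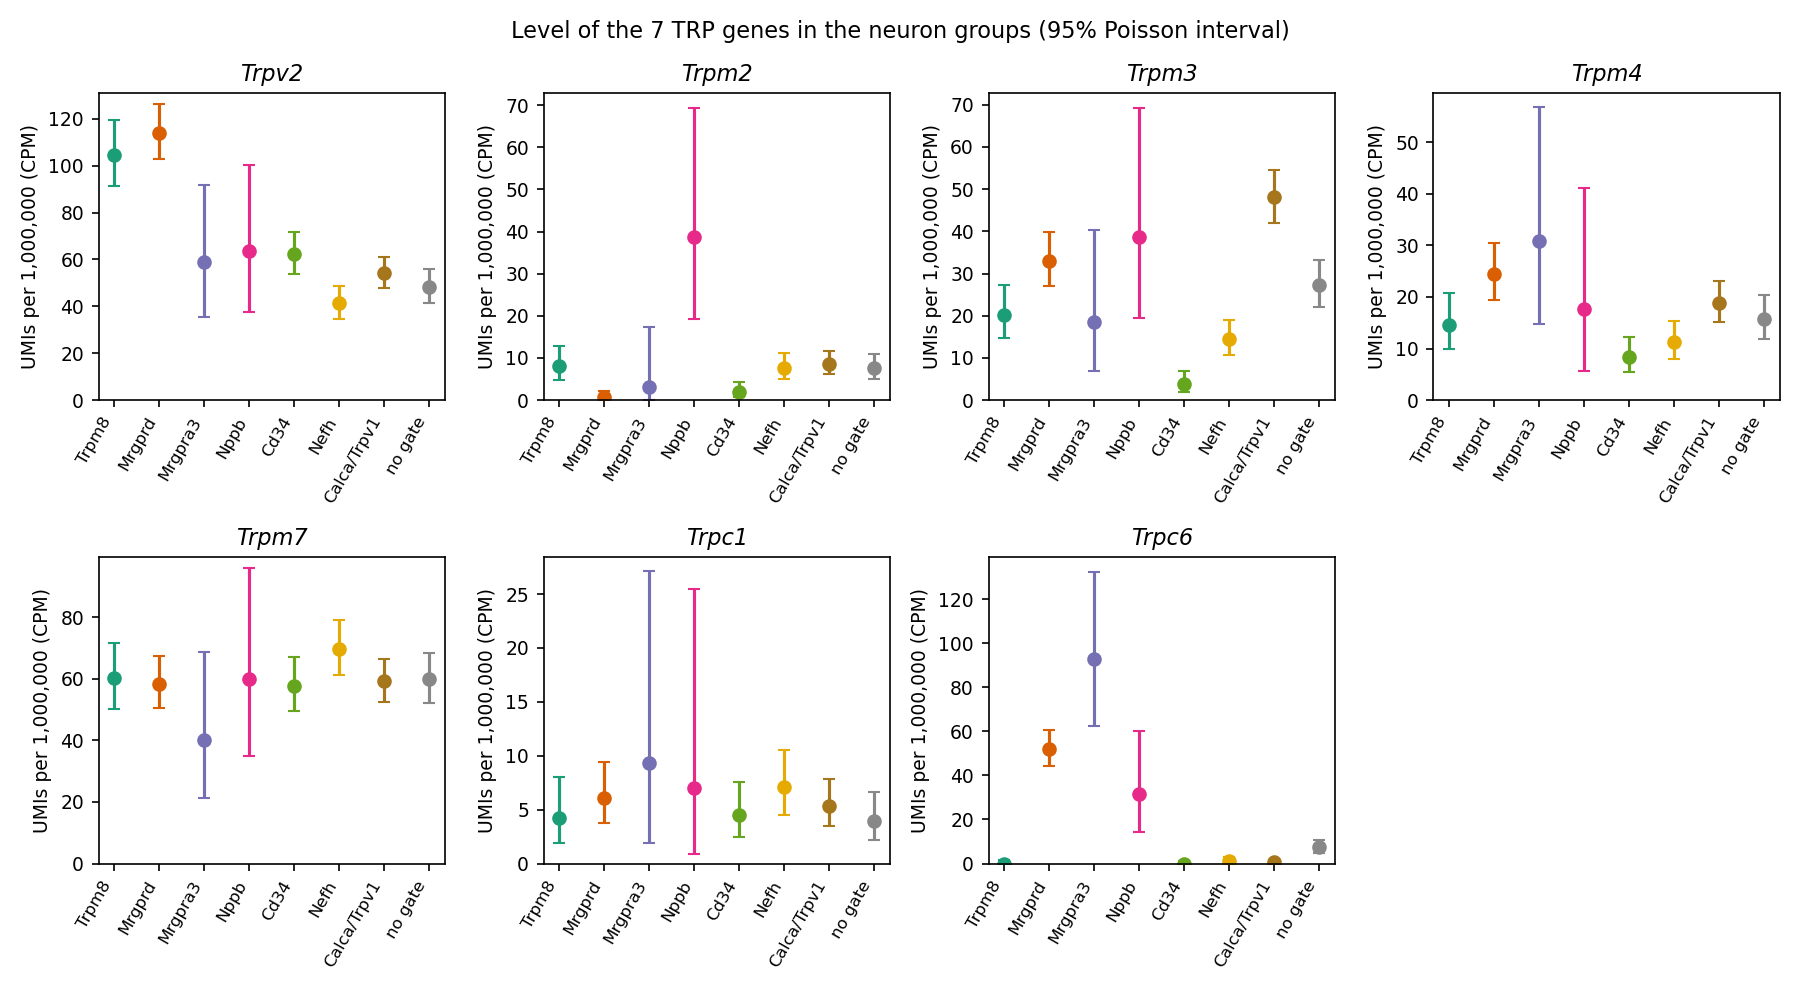
Level of each of the 7 TRP genes (UMIs per 1000000, vertical axis) in the 7 gated groups of neurons and in neurons that passed no gate (horizontal axis). Points are CPM of the summed UMIs and bars exact 95% Poisson intervals. Trpm7 lies between 40.2 and 69.8 CPM in the gated groups, whereas Trpc6 is above 30 CPM in Mrgprd, Mrgpra3 and Nppb neurons and at or below 1.18 CPM in the other gated groups.

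Single members were seen in a minority of neurons at the depth reached. Trpv2 was seen in 926 of 3855 neurons (24.0%, 22.7 to 25.4), Trpm7 in 892 (23.1%, 21.8 to 24.5) and Trpm3 in 439 (11.4%, 10.4 to 12.4). Trpm4 was seen in 295 neurons (7.65%, 6.83 to 8.54), Trpc6 in 165 (4.28%, 3.66 to 4.97), Trpm2 in 120 (3.11%, 2.59 to 3.71) and Trpc1 in 97 (2.52%, 2.05 to 3.06). These shares followed depth. Neurons with a UMI of Trpv2 had a median of 6527 UMIs and neurons without had 2522, and for Trpc1 the medians were 8766 and 2944.5. A single UMI was the usual count, since 657 of the 926 neurons with Trpv2 had 1 UMI and 107 had 3 or more. The most UMIs of a member in 1 neuron was 10, for Trpv2. At least 1 of the 7 was seen in 1879 neurons (48.7%), and 17 neurons, with a median of 24609 UMIs, showed 5 of them.

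To set shares beside cells that should lack a gene, all barcodes were thinned at random to 1000 UMIs. Barcodes with no UMI of Tubb3, Scn9a or Snap25 were grouped by haemoglobin genes (466 barcodes, median 1387.5 UMIs before thinning), pituitary hormones (319, median 1612), myelin genes (268, median 1610.5) and Vpreb3, a B-lineage gene (60, median 1516). Trpv2 was more frequent in neurons than in the first 3 of these sets. After thinning it was seen in 6.51% (5.75 to 7.34) of neurons, in 0.429% of haemoglobin barcodes, in 0.313% of pituitary hormone barcodes and in 0 of 268 myelin gene barcodes. In Vpreb3 barcodes it was at 24.0 (4.96 to 70.2) CPM from 3 UMIs, an interval that holds the 67.0 CPM of neurons, and in 0 of 60 after thinning. Trpm4 was seen in 1.95% (1.53 to 2.43) of thinned neurons and in none of the thinned barcodes of the other sets. Trpc6 was seen in 0.934% (0.655 to 1.29) of thinned neurons, in 2 of 466 haemoglobin barcodes (0.429%) and in none of the other sets. Taken as fewer than 3 counts, a count of 0 allows a share of up to 1.12% in 268 barcodes and 5% in the 60 Vpreb3 barcodes.

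Trpm7 differed from Trpv2 in this respect. It was in 6.15% (5.41 to 6.95) of thinned neurons, 5.97% (3.45 to 9.51) of myelin gene barcodes and 8.33% (2.76 to 18.4) of Vpreb3 barcodes, and its level was 72.2 (51.3 to 98.7) CPM in myelin gene barcodes, 53.5 (38.2 to 72.8) in haemoglobin barcodes and 52.4 (36.1 to 73.6) in pituitary hormone barcodes, beside 60.5 in neurons. In Vpreb3 barcodes it was higher than in neurons, at 128.2 (73.3 to 208.2) CPM from 16 UMIs. Trpc1 was too rare to be read above background by shares. It was seen in 14 thinned neurons (0.363%, 0.199 to 0.609) and in 0.215% to 0.373% of the haemoglobin, pituitary hormone and myelin gene barcodes, although its level was 5.35 CPM in neurons and 1.34 to 3.70 CPM in these sets, with wide intervals. For Trpm2 the thinned share was 0.752% (0.504 to 1.08) in neurons and 0.373% (0.00945 to 2.06) in myelin gene barcodes, where it rests on 1 barcode. It was seen in none of the other sets. For Trpm3 it was 2.75% (2.26 to 3.32) in neurons, 1.57% (0.511 to 3.62) in pituitary hormone barcodes, 1.12% (0.231 to 3.24) in myelin gene barcodes, 0.644% (0.133 to 1.87) in haemoglobin barcodes and 0 of 60 in Vpreb3 barcodes.

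**Figure D2:**
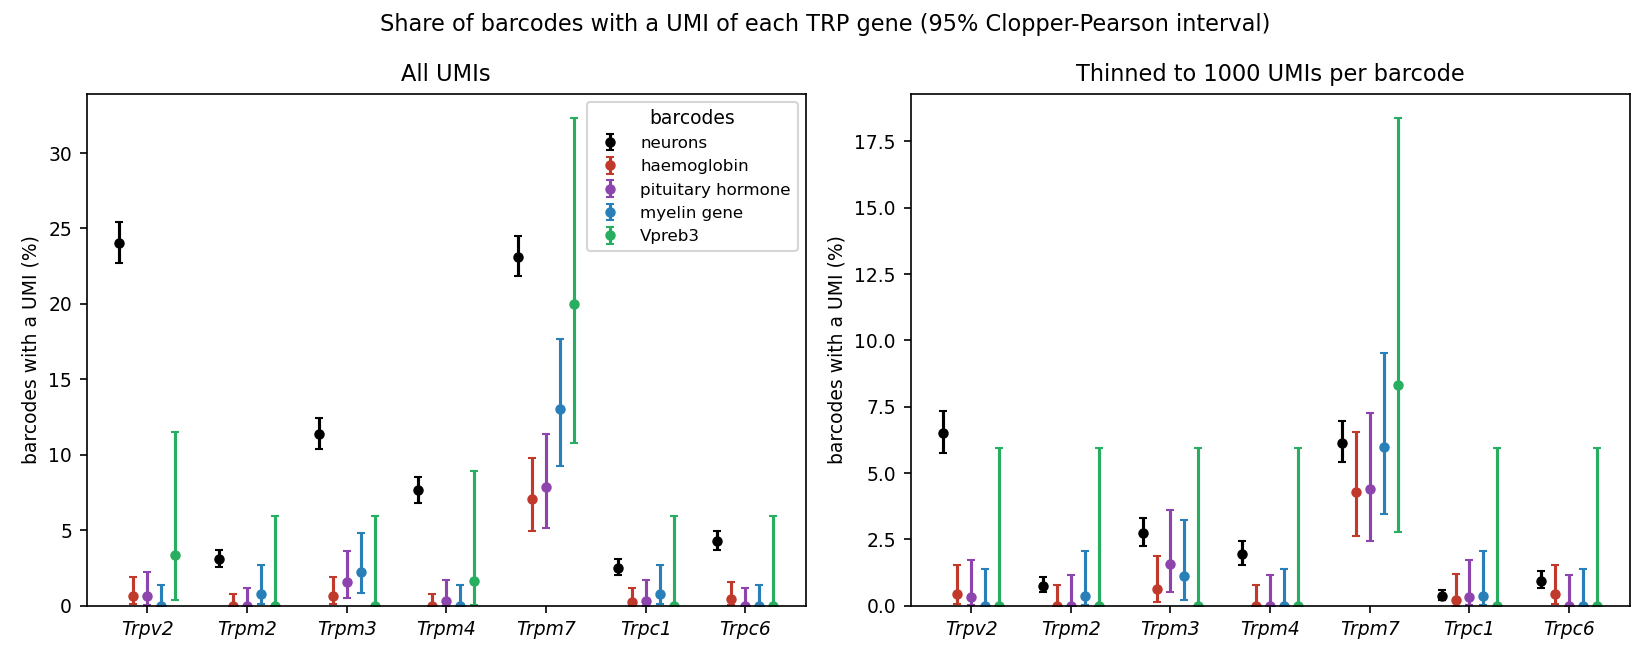
Share of barcodes with a UMI of each TRP gene (percent, vertical axis) with all UMIs on the left and after thinning to 1000 UMIs per barcode on the right, in 3855 neurons and 4 sets of barcodes without neuronal genes. Bars are exact 95% intervals. After thinning, Trpv2 is at 6.51% in neurons and at most 0.429% in the other sets, whereas Trpm7 is at 6.15% in neurons and between 4.29% and 8.33% in the others.

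Trpv2, the heat and stretch responsive channel, was most frequent in 2 groups. It was at 114.0 (102.7 to 126.2) CPM in Mrgprd neurons and at 104.7 (91.3 to 119.4) in Trpm8 neurons. In Nppb neurons it was at 63.4 (37.6 to 100.2) CPM, in Cd34 neurons at 62.4 (53.9 to 71.8), in Mrgpra3 neurons at 58.8 (35.4 to 91.8) and in Calca/Trpv1 neurons at 54.2 (47.9 to 61.2). It was lowest in Nefh neurons with 41.2 (34.7 to 48.6) CPM. The Mrgprd and Trpm8 groups did not differ beyond counting error (log2 difference 0.12, -0.12 to 0.37). Trpm8 neurons were above the next group, Nppb (0.72, 0.03 to 1.505), the groups from Nppb to Calca/Trpv1 were not separated from their neighbours, and Calca/Trpv1 neurons were above Nefh neurons (0.40, 0.09 to 0.70). Against all other neurons, Trpv2 was 1.96-fold higher in Mrgprd neurons (log2 0.97, 0.79 to 1.14) and 1.67-fold higher in Trpm8 neurons (0.74, 0.53 to 0.95). Of the 244 Trpm8 neurons, 95 passed no other gate, and in these Trpv2 was at 116.8 CPM. Its level was higher in shallow neurons than in deep ones of most groups. Below the median UMI count it was at 161.8 CPM in Trpm8, 132.3 in Mrgprd, 98.6 in Cd34, 65.0 in Nefh and 70.3 in Calca/Trpv1 neurons, beside 101.3, 112.9, 60.7, 38.7 and 51.3 CPM in the deeper neurons of these groups. A UMI of Trpv2 was in 50.7% (45.5 to 55.8) of Mrgprd neurons and in 14.0% (10.7 to 17.9) after thinning.

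Trpc6 was the most uneven of the 7. It was at 92.8 (62.6 to 132.5) CPM in Mrgpra3 neurons from 30 UMIs, at 52.0 (44.4 to 60.4) in Mrgprd neurons from 170 UMIs and at 31.7 (14.5 to 60.2) in Nppb neurons from 9 UMIs. In Nefh neurons it was at 1.18 (0.321 to 3.02) CPM and in Calca/Trpv1 neurons at 0.616 (0.127 to 1.80). No UMI of it was found in 244 Trpm8 neurons, which allows up to 1.41 CPM when a count of 0 is taken as fewer than 3, or in 320 Cd34 neurons, which allows up to 0.969. Mrgpra3 neurons were above Mrgprd neurons (0.84, 0.23 to 1.40), Mrgprd and Nppb neurons were not separated (0.71, -0.25 to 1.87), and Nppb neurons were above Nefh neurons (4.75, 2.91 to 6.90). These 3 groups held 209 of the 242 UMIs of Trpc6 in neurons (86.4%), from 485 neurons with 18.5% of all neuronal UMIs. Against all other neurons, Trpc6 was 12.7-fold higher in Mrgprd neurons (log2 3.67, 3.27 to 4.09), 9.02-fold higher in Mrgpra3 neurons (3.17, 2.57 to 3.73) and 2.81-fold higher in Nppb neurons (1.49, 0.34 to 2.44). At that limit it was at least 9.10-fold lower in Trpm8 neurons and at least 14-fold lower in Cd34 neurons. Below the median UMI count Trpc6 was at 166 CPM in 17 Mrgpra3 neurons (5 UMIs), 93.1 in 25 Nppb neurons and 42.3 in 92 Mrgprd neurons. In the deeper neurons of these groups it was at 85.3, 17.4 and 52.6 CPM. The shallow Mrgpra3 and Nppb groups are small and no intervals are given, so a difference with depth cannot be read from these values. Of the 26 UMIs of Trpc6 in neurons that passed no gate, 11 were in the 110 neurons with 1 UMI of Mrgprd, just under the gate (40.6 CPM, 20.2 to 72.6), and 15 in the 1330 without (4.56 CPM, 2.55 to 7.52).

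Neurons were also sorted by their Mrgprd count, where those with 2 or more UMIs are the 379 of the Mrgprd gate and so add nothing independent of it. Trpc6 was at 3.03 (2.26 to 3.97) CPM in 3329 neurons with no UMI of Mrgprd, at 41.8 (25.6 to 64.6) in 147 neurons with 1 UMI, and at 44.7 to 56.4 CPM in those with 2, with 3 to 5 and with 6 or more. Its level did not differ beyond the intervals among neurons with 1 or more UMIs of Mrgprd. Trpv2 was at 57.0 (53.5 to 60.7) CPM with no UMI of Mrgprd, at 102.5 (75.8 to 135.5) with 1 UMI, at 93.8 (67.6 to 126.7) with 2, at 108.8 (88.0 to 133.0) with 3 to 5 and at 121.0 (106.0 to 137.4) with 6 or more.

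**Figure D3:**
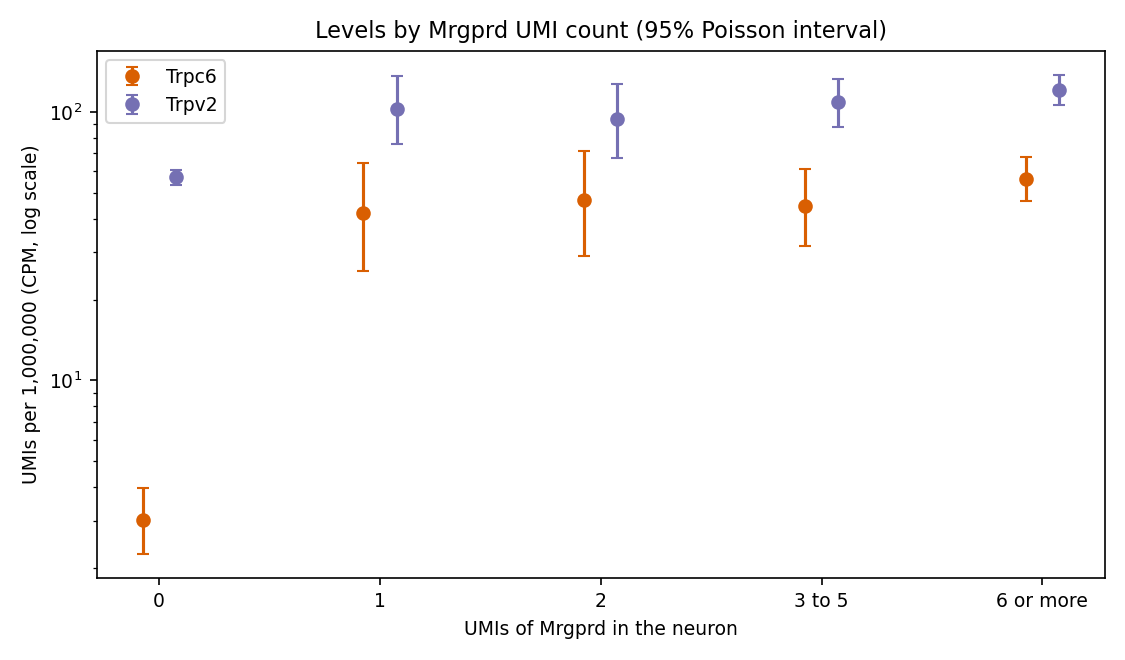
Levels of Trpc6 and Trpv2 (UMIs per 1000000, log axis) in neurons sorted by their UMIs of Mrgprd (horizontal axis), with exact 95% Poisson intervals. Trpc6 is at 3.03 CPM with no UMI of Mrgprd and at 41.8 to 56.4 CPM with 1 or more.

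Trpm3, the pregnenolone sulfate receptor, was highest in Calca/Trpv1 neurons with 48.0 (42.1 to 54.6) CPM. It was at 38.7 (19.3 to 69.3) CPM in Nppb neurons from 11 UMIs, at 33.0 (27.1 to 39.9) in Mrgprd neurons, at 20.3 (14.7 to 27.3) in Trpm8 neurons and at 18.6 (6.81 to 40.4) in Mrgpra3 neurons from 6 UMIs. It was at 14.4 (10.7 to 19.1) CPM in Nefh neurons and at 3.88 (2.003 to 6.77) in Cd34 neurons. Calca/Trpv1 and Nppb neurons were not separated, nor were Nppb and Mrgprd neurons. Mrgprd neurons were above Trpm8 neurons (log2 0.70, 0.18 to 1.25), and Nefh neurons were above Cd34 neurons (1.90, 0.96 to 2.94). Against all other neurons, Trpm3 was 2.37-fold higher in Calca/Trpv1 neurons (log2 1.24, 0.99 to 1.49), which held 234 of its 560 UMIs. In Cd34 neurons the log2 ratio was -2.99 (-3.95 to -2.17) and in Nefh neurons -1.01 (-1.47 to -0.59).

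Trpm2, the ADP-ribose gated channel, was rare, and its highest level rests on few molecules. It was at 38.7 (19.3 to 69.3) CPM in Nppb neurons, from 11 UMIs in 9 of 57 neurons. It was at 8.62 (6.21 to 11.7) CPM in Calca/Trpv1 neurons, 8.01 (4.67 to 12.8) in Trpm8 neurons and 7.66 (5.001 to 11.2) in Nefh neurons, which were not separated from each other. In Cd34 neurons it was at 1.94 (0.711 to 4.22) CPM and in Mrgprd neurons at 0.611 (0.0740 to 2.21), from 6 and 2 UMIs, and Mrgpra3 neurons had 1 UMI. Nppb neurons were above Calca/Trpv1 neurons (log2 2.17, 1.06 to 3.15) and 6.61-fold above all other neurons (2.72, 1.68 to 3.61). Without the neuron with the most UMIs of Trpm2 in that group, 9 UMIs remained and the log2 ratio was 2.45 (1.28 to 3.42). In Mrgprd neurons the ratio to all other neurons was -3.59 (-6.65 to -1.71).

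Trpm4, the calcium-activated monovalent channel, was at 30.9 (14.8 to 56.9) CPM in Mrgpra3 neurons from 10 UMIs and at 24.5 (19.4 to 30.4) in Mrgprd neurons from 80. It was at 18.9 (15.2 to 23.2) CPM in Calca/Trpv1 neurons, 17.6 (5.72 to 41.1) in Nppb neurons, 14.6 (9.93 to 20.8) in Trpm8 neurons, 11.2 (7.92 to 15.4) in Nefh neurons and 8.40 (5.49 to 12.3) in Cd34 neurons. No group in this order was separated from its neighbour, but 7 of the 21 pairs of groups were separated by intervals that excluded 0. Against all other neurons the log2 ratio was 0.74 (0.36 to 1.11) in Mrgprd neurons, 0.96 (-0.12 to 1.86) in Mrgpra3 neurons, -0.61 (-1.14 to -0.12) in Nefh neurons and -1.06 (-1.70 to -0.48) in Cd34 neurons.

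Trpm7, the channel with a kinase domain, was the most even. It was at 69.8 (61.2 to 79.3) CPM in Nefh neurons, at 60.3 in Trpm8, 59.9 in Nppb, 59.1 in Calca/Trpv1, 58.4 in Mrgprd and 57.8 in Cd34 neurons, and at 40.2 (21.4 to 68.8) in Mrgpra3 neurons from 13 UMIs. None of the 21 pairs of groups was separated by an interval that excluded 0. The log2 ratio to all other neurons was 0.25 (0.04 to 0.45) in Nefh neurons and -0.60 (-1.51 to 0.18) in Mrgpra3 neurons, so a change of over 2-fold is outside the interval for each gated group but Mrgpra3. Trpc1 gave 112 UMIs in neurons, and its levels ran from 4.24 (1.94 to 8.06) CPM in Trpm8 neurons to 9.28 (1.91 to 27.1) in Mrgpra3 neurons, from 3 UMIs. In Nefh neurons it was at 7.07 (4.53 to 10.5) CPM from 24 UMIs (log2 ratio 0.49, -0.22 to 1.16). For Trpc1 too, none of the 21 pairs was separated, but the intervals were wide enough to hold differences of over 2-fold in most groups.

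Counting genes past 2-fold against all other neurons put these values beside the rest of the table, in which 12114 genes had at least 50 UMIs in neurons. In these shares a gene with no UMI in a group counts as lower. In Cd34 neurons 4 of the 7 TRP genes (Trpm2, Trpm3, Trpm4 and Trpc6) were more than 2-fold lower and 13.0% of all genes were. Endothelial genes (13.25 CPM) and pituitary genes (900.8 CPM) were also highest there among gated groups. Without neurons with myelin gene UMIs or over 1% haemoglobin, 97 of the 320 Cd34 neurons were left. In Nefh neurons 2 (Trpm3 and Trpc6) were lower, with 9.99% of all genes, and Trpm3 lay at the edge of the limit. In Mrgprd neurons Trpc6 was higher, with 5.27% of genes, and Trpm2 lower, with 18.5%. In Mrgpra3 neurons Trpc6 was higher, with 6.22% of genes, and Trpm2 lower on 1 UMI, with 22.0% (12.9% where genes need 50 UMIs outside each group and no UMI is set at 3 counts). In Nppb neurons Trpm2 and Trpc6 were higher, with 6.26% of genes. In Calca/Trpv1 neurons Trpm3 was higher, with 5.42%, and Trpc6 lower, with 9.52%. In Trpm8 neurons Trpc6 was lower, with 16.6% of genes. None of the 7 was higher in Trpm8 (3.66%), Cd34 (4.25%) or Nefh (5.52%) neurons, or lower in Nppb neurons (21.4%, or 12.3% by the stricter count). The median log2 ratio of all these genes was between -0.16 and -0.02, and it was below -0.10 in Trpm8, Mrgprd, Mrgpra3 and Nppb neurons. Scaled to that median, Trpv2 in Mrgprd neurons and Trpm4 in Mrgpra3 neurons would also pass 2-fold, and Trpm3 in Nefh neurons and Trpm2 in Mrgpra3 neurons would not. Trpm3 in Calca/Trpv1 neurons was under 2-fold in neurons without myelin gene UMIs or over 1% haemoglobin (log2 0.96), as the mean of each neuron's CPM (0.96) and in neurons below the median UMI count (0.995). Trpv2 in Mrgprd neurons and Trpm4 in Mrgpra3 neurons lay close to 2-fold and passed it under some alternatives, with log2 ratios of up to 1.06 and 1.39.

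**Figure D4:**
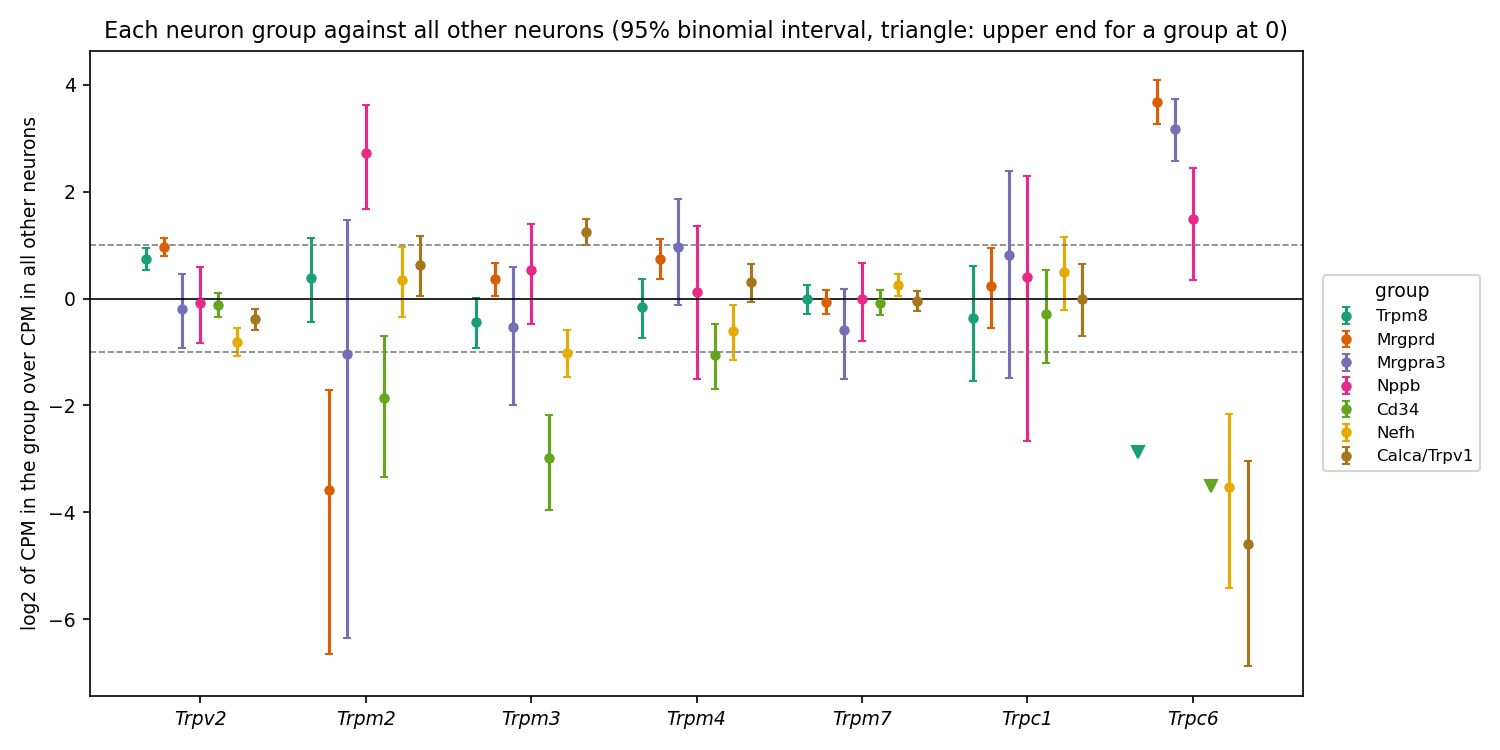
log2 ratio of the CPM of each TRP gene in a gated group to its CPM in all other neurons (vertical axis), with exact 95% binomial intervals. Colours mark the group, dashed lines mark 2-fold, and triangles mark the upper end of the interval for Trpc6 in Trpm8 and Cd34 neurons, where it had no UMI. Trpc6 spans from 3.67 in Mrgprd neurons to -4.60 in Calca/Trpv1 neurons, while Trpm7 lies between -0.60 and 0.25.

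Groups were also split by a further gene, in 5 splits with at least 30 neurons on each side, which gave 35 comparisons for the 7 genes. Trpc6 had no UMI on either side of the Cd34 split and so no ratio there. Intervals excluded 0 for 4 of the comparisons. The side with more of the further gene was deeper in every split. Median UMIs were 6021 and 3645 for Calca and 7083 and 3613 for Ntrk2 in Nefh neurons. They were 5164.5 and 3091 for Trpa1 in Calca/Trpv1 neurons, and the splits were not thinned to equal depth. Among Nefh neurons, Trpm3 was at 24.9 CPM in the 89 with at least 5 UMIs of Calca and at 8.42 in the 322 with 0 or 1 (log2 difference 1.56, 0.58 to 2.58). In the same split Trpc1 was at 2.17 and 10.5 CPM (-2.28, -5.42 to -0.24), from 2 and 20 UMIs. Nefh neurons with at least 2 UMIs of Ntrk2, the receptor of BDNF, had 5.82 CPM of Trpm3 and those with none 20.5 (-1.81, -3.34 to -0.57). Among Calca/Trpv1 neurons, Trpv2 was at 62.9 CPM in the 298 with at least 2 UMIs of Trpa1 and at 47.2 in the 479 with none (0.41, 0.03 to 0.80). Mrgprd neurons with and without a UMI of Agtr1a or Mrgpra1 did not differ in Trpc6 beyond counting error (55.0 and 43.4 CPM, 0.34, -0.19 to 0.91), nor did Cd34 neurons with and without Fam19a4 or Cdh9 in Trpv2 (64.3 and 46.6 CPM, 0.47, -0.27 to 1.30).

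The 7 genes were next compared between neurons with and without a UMI of 4 main sensory channels, whatever their gate, and 14 of these 28 ratios had intervals that excluded 0. With Trpv1 (1233 neurons with, 2622 without), Trpm3 was at 41.2 and 18.9 CPM (log2 difference 1.13, 0.88 to 1.37), Trpm2 at 8.95 and 4.87 (0.88, 0.36 to 1.39) and Trpm4 at 20.8 and 13.7 (0.60, 0.29 to 0.92). Trpc6 was lower with Trpv1, at 8.82 and 13.1 CPM (-0.57, -0.9997 to -0.15). With Trpa1, the irritant receptor (770 neurons), 4 genes were higher, among them Trpc6 at 17.6 and 9.23 CPM (0.93, 0.54 to 1.30) and Trpm3 at 39.2 and 21.9 (0.84, 0.59 to 1.09), and Trpm7 was lower at 55.0 and 62.6 CPM. With Trpm8 (389 neurons), Trpv2 was at 94.7 and 62.7 CPM (0.59, 0.40 to 0.79), and Trpc6 had no UMI in 389 neurons and 13.3 CPM in the others. With Piezo2, the touch channel (1851 neurons), Trpc6 was at 16.8 and 2.92 CPM (2.52, 1.90 to 3.21), while Trpm2 was at 4.06 and 10.04 (-1.31, -1.84 to -0.79) and Trpm3 at 23.4 and 32.3 (-0.46, -0.71 to -0.22). Neurons with a UMI of a channel are deeper than those without, and levels of some members differed between shallow and deep neurons. Shares were therefore also compared after thinning, with the channel read from the thinned counts too. Thinning left a UMI of Piezo2 in 1167 neurons in place of 1851, and neurons that lost it were counted among the others. Overlap of thinned shares therefore cannot tell an effect of depth from this mixing. Trpc6 was then in 1.11% (0.594 to 1.90) of 1167 neurons with Piezo2 and 0.856% (0.543 to 1.28) of the others, with intervals that overlapped. At full depth 18 of the 2004 neurons without Piezo2 had a UMI of Trpc6, and after thinning 23 of 2688 did. Trpc6 was in 1.10% of 365 neurons with Trpa1 and 0.917% of the others, which overlapped too. Intervals also overlapped for Trpv2 with Trpa1, at 77.9 and 62.7 CPM and in 4.11% (2.32 to 6.69) and 6.76% (5.95 to 7.65) of thinned neurons, and for Trpm3 with Trpv1, at 4.36% (2.89 to 6.27) and 2.44% (1.94 to 3.03). Of the 14 ratios whose intervals excluded 0, only Trpm2 with Piezo2 had thinned intervals that stayed apart, at 0.171% (0.0208 to 0.618) and 1.004% (0.663 to 1.46). These splits overlap with the gates and are not independent of the group levels.

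**Figure D5:**
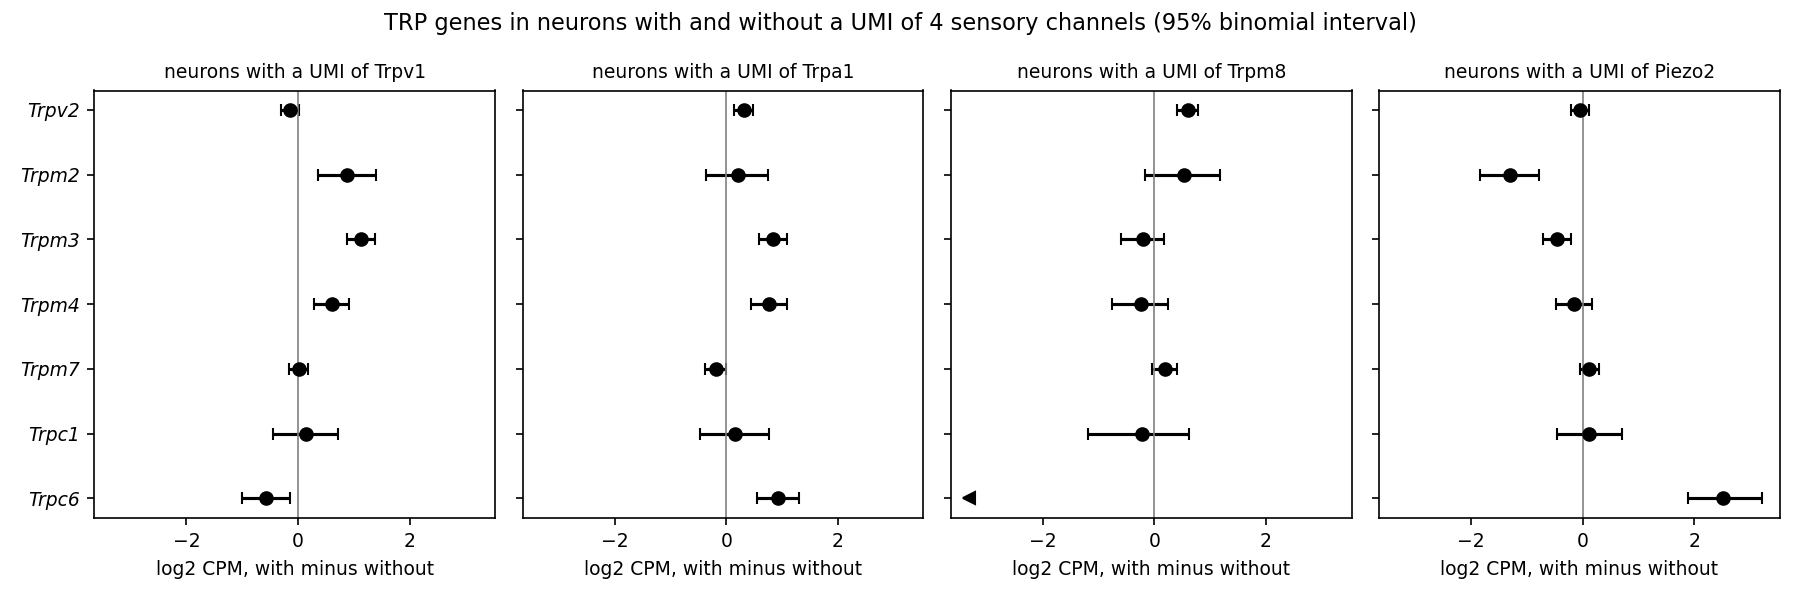
log2 difference in CPM of each TRP gene (vertical axis) between neurons with and without a UMI of Trpv1, Trpa1, Trpm8 or Piezo2 (panels), with exact 95% binomial intervals. The triangle is the upper end of the interval for Trpc6, which had no UMI in neurons with Trpm8. Trpc6 is at 2.52 in the Piezo2 panel, and Trpm3 is at 1.13 in the Trpv1 panel. Thinned shares of Trpc6 were 1.11% with Piezo2 and 0.856% without, but thinning also moved neurons with Piezo2 to the side without it.

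Pairs of these genes were seldom seen in the same neuron at equal depth. Trpv2 and Trpm7 were seen together in 350 neurons (median 12549 UMIs) and in 16 after thinning. Trpv2 and Trpc6 were together in 99 neurons and in 7 after thinning, and Trpm2 and Trpc6 in 5 and in none. After thinning 60 neurons showed 2 of the 7 genes and 1 neuron showed 3.

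The 3 genes most like each member by Pearson's r of log2(CPM + 1) over the 7 gated groups were listed among 5912 genes with at least 200 UMIs and a 2-fold range. With 7 points that share the same gates and depths, many genes reach a high r, and for Trpm7, whose own range was small, 118 did so above 0.9. For Trpc6 they were Dnajc16, Leprotl1 and Pop5 (r 0.98 each), and 93 genes were above 0.9. These genes were found in all 7 groups, Dnajc16 at 8.02 to 17.1 CPM, Leprotl1 at 173 to 455.7 and Pop5 at 144.4 to 447.2, and so vary far less than Trpc6. For Trpm3 they were Tmem255a (0.97), Sept6 (0.96) and Bcam (0.96). For Trpv2 only Arl15 was above 0.9 (0.90), followed by Itga7 and Appl2 (0.85 each). For Trpm2 they were Fam210b (0.98), Ndst3 (0.97) and Maged1 (0.96), for Trpm4 Lekr1 (0.98), 3632451O06Rik (0.98) and Ppp1r14b (0.96), for Trpm7 Clec16a, Dbt and Vstm2a (0.99, 0.99 and 0.98), and for Trpc1 Golm1 (0.97), Mpzl1 (0.96) and Ppm1h (0.96).

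Of 20 other TRP genes, 19 were in the table and 10 had at least 50 UMIs in neurons. The 3 genes used as sensory markers were Trpv1 with 3507 UMIs, Trpa1 with 2533 and Trpm8 with 1332, and Mcoln1, a lysosomal channel, gave 831. Trpv1 and Trpm8 took part in the gates, so their levels by group are not results. Trpa1 was at 400.4 CPM in Calca/Trpv1 neurons, 11.03-fold above all other neurons. Trpc5 and Trpc7 encode channels opened through Gq-coupled receptors. They passed the limit of 50 UMIs only through 1 group, with 36 of the 59 UMIs of Trpc5 in Mrgprd neurons and 60 of the 108 UMIs of Trpc7 in Calca/Trpv1 neurons, and enter no count. Mcoln1 was even, like Trpm7, at 31.7 to 48.1 CPM in the gated groups. Counts past 2-fold leave out Trpv1 and Trpm8, keep genes with at least 50 UMIs outside each group, and set genes with no UMI in a group at 3 counts. Of the remaining 6 genes, 3 (Trpa1, Trpc4 and Pkd2) were past 2-fold in at least 1 gated group in either direction, beside 47.3% of 11330 genes. Trpa1 was higher in Calca/Trpv1 neurons (4.25% of genes), and none was higher in another group. Lower were 1 in Trpm8 (14.5%), none in Mrgprd (15.9%), 1 in Mrgpra3 (12.9%), 3 in Nppb (12.3%), 1 in Cd34 (10.9%), 2 in Nefh (8.73%) and 1 in Calca/Trpv1 neurons (8.13%). Trpc4 and Pkd2 had 1 UMI each in Nppb neurons.

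Of 21 genes of TRP regulators and partners, 20 had at least 50 UMIs outside each group, and 8 were past 2-fold in at least 1 group, beside 47.3% of all genes counted in the same way. In Mrgprd neurons 4 were higher, with 5.02% of genes, and 1 lower, with 15.9%. Plcb3, a phospholipase C that makes diacylglycerol below Gq-coupled receptors, was at 354.9 (334.7 to 375.9) CPM there, 5.60-fold above all other neurons. It was at 312.5 CPM in Mrgpra3 and 218.3 in Nppb neurons, so it was highest in the same 3 groups as Trpc6. It was also at 97.3 CPM in Calca/Trpv1 neurons, where Trpc6 was at 0.616, and at 9.90 to 32.7 CPM in the other gated groups. Whether Plcb3 and Trpc6 are linked was not tested. Plcb4, another phospholipase C of this kind, was at 34.8 (28.7 to 41.9) CPM in Mrgprd neurons and highest in Nefh (85.7) and Cd34 (75.9) neurons, where Trpc6 was at 1.18 CPM and without a UMI. Gng2, a G protein gamma subunit, was at 1128 CPM in Mrgprd neurons (4.11-fold). Abcc8, the sulfonylurea receptor SUR1 that can partner TRPM4, was at 43.7 CPM in Mrgprd and 40.2 in Mrgpra3 neurons, from 143 and 13 UMIs, and was 8.77-fold higher in Mrgprd neurons than in all others. Kctd5, an adaptor of ubiquitin ligases, was 2.74-fold higher in Mrgprd neurons. Itpr1, the inositol trisphosphate receptor, was at 24.9 CPM in Calca/Trpv1 neurons (3.09-fold) and at 3.06 in Mrgprd neurons. In Trpm8 neurons none were higher (3.36% of genes) and 6 lower (14.5%), in Mrgpra3 neurons 3 higher (5.62%) and 2 lower (12.9%), and in Nppb neurons 1 higher (5.62%) and 2 lower (12.3%). In Cd34 neurons none were higher (3.63%) and 5 lower (10.9%), in Nefh neurons none higher (4.59%) and 3 lower (8.73%), and in Calca/Trpv1 neurons 1 higher (4.25%) and 2 lower (8.13%).

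Other annotated genes overlap some of the 7. By RefSeq on GRCm38.p6, lncRNA genes overlap Trpm2, Trpm3, Trpc1 and Trpc6, and a pseudogene overlaps Trpm4, whereas none overlaps Trpv2 or Trpm7. C330002G04Rik, a lncRNA that overlaps the 3' part of Trpm3 (chr19:22137797-22995410), had 1 UMI in neurons. Gm32014 overlaps Trpc6 and Gm39407 overlaps Trpc1 (chr9:95705072-95750386). Whether the counting used strand is not given in the sources used here, so reads of overlapping genes could not be told apart from those of the channels.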

How the data were processed

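The authors deposited 1 table of genes by cell barcodes, in which each value is a whole-number UMI count that was not normalized. Per the labels and the study's methods, Dropseq reads were aligned to the mouse genome (mm10) with STAR 2.5.3a. No barcode in the table had fewer than 1000 UMIs. The submitters' processing notes also name bcl2fastq 2.17 and Seurat 1.4.0.16. Whether strand was used in counting is not given in the sources used here. All 9 runs share the table and were treated as 1 sample of wild-type trigeminal ganglion, so that no p-value or standard error was computed.

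UMIs were summed over the barcodes of a group in Python 3.11.15 with pandas 2.3.3, numpy 2.4.6 and scipy 1.17.1, and the ratio and interval steps were tested on simulated data. Bounds on a fold for a group at 0, and the counts for other TRP genes and regulators, used a floor of 3 counts, whereas the counts beside the 7 genes took no UMI as lower. A gene was counted as past 2-fold where its CPM ratio to all other neurons was above 2 or below its inverse, among genes with at least 50 UMIs in neurons. Barcodes were thinned to 1000 UMIs without replacement with a fixed seed. The 7 genes, the gates and the lists of TRP genes, regulators and markers were chosen with earlier results of these data known. Named were every one of the 7, the other TRP genes with at least 500 UMIs, up to 5 genes per list with the largest ratios past 2-fold, and the 3 genes most like each member with gate genes left out. 1 other TRP gene that these rules cover is not reported here. Positions and promoters are from RefSeq on GRCm38.p6, the assembly that mm10 denotes. Alternatives changed the neuron rule, the gates, the depth of neurons, the scaling and the limit on UMIs.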

Additional observations from a re-analysis of the deposited data

How the results depend on the processing

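No paired analysis was possible because the barcodes do not name the run and there is 1 group of samples. Of 84 log2 ratios of a gene in its highest group with at least 10 UMIs (for Trpc1 this is Nefh), recomputed under the alternatives, 80 stayed within the main 95% interval. Levels in CPM moved more. Of the 49 levels of a gene in a group, 34 left the main interval in neurons below the median UMI count, among them Trpv2 in Trpm8 (161.8 for 104.7), Cd34 (98.6 for 62.4) and Nefh neurons (65.0 for 41.2), and 1 did in the deeper neurons. As the mean of each neuron's CPM 4 did. For Trpm3 in Calca/Trpv1 neurons the ratio was 0.96 both without neurons with myelin gene UMIs or over 1% haemoglobin and as the mean of each neuron's CPM, which is under 2-fold. In neurons below the median UMI count, where groups hold few UMIs of these genes, Trpm7 in Nefh neurons was at -0.0009 and Trpc6 in Mrgpra3 neurons at 4.08, from 5 UMIs. The highest group was the same for 2 of the 7 genes without neurons with myelin gene UMIs or over 1% haemoglobin, for 4 without neurons that passed more than 1 gate and for 0 in neurons below the median UMI count, where 4 genes had any group with at least 10 UMIs. In the first of these, Mrgpra3 neurons numbered 29, under the 30 required, Trpm2 had 6 UMIs in Nppb neurons and Trpc1 had no group with 10. Trpm7 moved from Nefh to Cd34 neurons without such a limit, with a log2 ratio of 0.19 (-0.17 to 0.54) in Nefh neurons. The ratios in the original groups were 3.05 for Trpc6, 3.16 for Trpm2 and 0.97 for Trpm4, within their intervals. Without neurons that passed more than 1 gate, Mrgpra3 neurons numbered 28, and Trpv2 was highest in Trpm8 neurons (116.8 CPM, beside 112.4 in Mrgprd neurons). Leaving out barcodes with an N or given to 2 columns, or the neuron with the most UMIs of the gene, both chosen after seeing the data, moved no log2 ratio out of its interval.

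Shares of neurons followed depth and the rule. Thinned to 1000 UMIs they were 6.51% for Trpv2, 0.752% for Trpm2, 2.75% for Trpm3, 1.95% for Trpm4, 6.15% for Trpm7, 0.363% for Trpc1 and 0.934% for Trpc6. With at least 2 UMIs required they were 6.98%, 0.285%, 2.36%, 0.882%, 6.38%, 0.285% and 1.38% in that order. With at least 900 genes, Trpv2 was in 26.2%, Trpm3 in 12.5% and Trpm7 in 25.3% of neurons. Without neurons with myelin gene UMIs or over 1% haemoglobin, Trpv2 was in 21.6%, Trpm2 in 2.19%, Trpm4 in 6.58%, Trpm7 in 19.7% and Trpc1 in 1.99%.

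With at least 200 UMIs required, 9315 genes were left in place of 12114, and fewer passed 2-fold. Higher were 254 (443 with 50 UMIs) in Trpm8, 465 (638) in Mrgprd, 412 (754) in Mrgpra3, 373 (758) in Nppb, 299 (515) in Cd34, 340 (669) in Nefh and 351 (656) in Calca/Trpv1 neurons. Lower were 1101 (2016) in Trpm8, 1136 (2242) in Mrgprd, 1397 (2666) in Mrgpra3, 1382 (2594) in Nppb, 748 (1573) in Cd34, 675 (1210) in Nefh and 592 (1153) in Calca/Trpv1 neurons, and 3 of the other TRP genes passed in place of 8, both counted with gate genes, with Trpc5 and Trpc7 and with no UMI taken as lower. Trpm2 is below this limit, so its counts as higher in Nppb and lower in Mrgprd, Mrgpra3 and Cd34 neurons are lost. Few UMIs limit Trpm2, Trpc1 and every value in Mrgpra3 and Nppb neurons.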

Other observations

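Trpm6, the closest relative of Trpm7 and a magnesium channel, had 24 UMIs in neurons, which is under the limit set for counts of genes, and was singled out after its values were seen. Of these UMIs, 9 were in the 57 Nppb neurons (31.7 CPM) and the level in all other neurons was 0.727 CPM. In Trpm8, Mrgprd, Nefh and Calca/Trpv1 neurons Trpm6 had 2, 1, 5 and 3 UMIs, and in Mrgpra3 and Cd34 neurons none. Other TRP genes known from sensory or epithelial tissue were close to absent at this depth, with 9 UMIs of Trpv4, 4 of Trpv3, 4 of Trpm1 and 1 of Trpm5 in all 3855 neurons.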
